A study of Arabidopsis thaliana with 20 samples.

Results

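The plastid transfer RNA (tRNA) genes of Arabidopsis thaliana were taken as the rows of the count files that carry 37 listed gene identifiers, 37 of the 133 plastid genes and of the 32744 genes counted. The last 7 of these identifiers stand for second copies in the inverted repeat, a stretch that the plastid genome holds as 2 mirrored copies. No table used here pairs the plastid identifiers with gene names (0 of the 37 matched), so the members are given by identifier and no amino acid or role is assigned to any of them. The libraries were made from ribosomal RNA-depleted total RNA of wild-type Col-0 rosettes, grown in soil at 60% soil water for 8 days before and 19 days on an automated platform. They carry 2 labels, 10 libraries under N-limiting supply (2.5 mM nitrate) and 10 under N-sufficient supply (5 mM nitrate). All 32744 values of each N-limiting library equal those of the N-sufficient library with the same number, so the nitrogen supplies were not compared and 10 libraries are described, under the N-limiting label that the study uses, although the files do not settle which supply these counts belong to. The study used the replicates of 1 condition as a blank experiment, in which any gene called different between 2 groups of libraries counts as a false call.

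Transfer RNAs carry amino acids to the ribosome and pair with the codons of the messenger RNA through their anticodon. Plastids have their own ribosomes and encode the tRNAs that these use, which are transcribed by a plastid-encoded and a nuclear-encoded RNA polymerase. Precursors are trimmed by RNase P at the 5′ end and by RNase Z at the 3′ end, some lose an intron, and a nucleotidyltransferase adds the terminal CCA. The plastid glutamyl-tRNA also feeds the synthesis of chlorophyll and heme. A count per gene does not tell a mature tRNA from its precursor or intron, and no gene lengths were used, so each value below is a number of reads on a gene and gives no level per length.

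RefSeq lists 37 tRNA genes on the plastid genome of the TAIR10.1 assembly (154478 bases), with 30 distinct sequences and all 20 amino acids. Spliced sequences have 71 to 92 bases, and 8 of the genes carry an intron of 512 to 2559 bases. The tRNA-Lys gene has the longest intron, which holds the matK gene. Of the 30 distinct sequences, 23 occur at 1 place and 7 at 2 places, with copies identical over their whole length, introns included. These 7 are printed because reads from identical copies cannot be assigned to 1 of them, which bears on the equal counts described below. They are given as spliced DNA, 5′ to 3′, with the anticodon in capitals.
tRNA-Ile (CAT): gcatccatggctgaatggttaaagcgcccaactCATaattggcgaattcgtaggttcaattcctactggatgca
tRNA-Leu (CAA): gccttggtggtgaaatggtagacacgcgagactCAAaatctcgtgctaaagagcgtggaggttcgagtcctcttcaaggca
tRNA-Val (GAC): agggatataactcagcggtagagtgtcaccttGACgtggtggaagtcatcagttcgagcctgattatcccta
tRNA-Ile (GAT): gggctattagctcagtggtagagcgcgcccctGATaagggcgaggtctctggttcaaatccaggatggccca
tRNA-Ala (TGC): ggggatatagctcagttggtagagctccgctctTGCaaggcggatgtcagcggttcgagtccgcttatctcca
tRNA-Arg (ACG): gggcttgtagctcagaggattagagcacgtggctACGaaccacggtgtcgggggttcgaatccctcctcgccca
tRNA-Asn (GTT): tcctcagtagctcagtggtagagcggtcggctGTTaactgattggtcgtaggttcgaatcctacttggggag

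The first copies lie at Pltd:86312-86385 (minus strand), Pltd:94276-94356 (minus), Pltd:100709-100780 (plus), Pltd:102801-103601 (plus), Pltd:103665-104538 (plus), Pltd:108302-108375 (plus) and Pltd:109013-109084 (minus), in the order printed. The second copies lie on the opposite strand at Pltd:152264-152337, Pltd:144293-144373, Pltd:137869-137940, Pltd:135048-135848, Pltd:134111-134984, Pltd:130274-130347 and Pltd:129565-129636. Of these 7 genes, only tRNA-Ile (GAT) and tRNA-Ala (TGC) are interrupted, by introns of 729 and 801 bases. Which identifier belongs to which of these sequences was not determined.

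Libraries held 41.4 to 60.3 M counts (median 44.0 M), and replicate 10 was the deepest. The libraries are distinct, since even the most alike of the 45 pairs (replicates 8 and 9) gave a chi-square over genes that was 7.57 times its degrees of freedom. The study calls them biological replicates, and whether each came from a separate plant is not given in the labels, so any spread given here is that between these libraries. Genes known from rosette leaf were abundant (CAB1, a light-harvesting protein, at 8403 CPM, the counts scaled to the library total, and RBCS1A, the small subunit of Rubisco, at 5376 CPM). The root gene PYK10 stood at 11.9 CPM and the seed storage gene CRA1 at no more than 0.0446 CPM in any library.

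Plastid tRNA genes took a small and even share of the reads. They held 216413 to 287535 counts per library, which is 0.786% ± 0.0387 of the plastid counts and 0.537% ± 0.0318 of all counts (SD, n = 10). The share of plastid counts had its lowest value at 0.709% in replicate 10, its median at 0.791% and its highest value at 0.843% in replicate 2. Plastid genes together made up 68.3% ± 2.49 of all counts (SD, n = 10), and 1 gene that is no tRNA gene, ATCG00020, made up 40.0% ± 2.62. With ATCG00020 left out of the denominator the tRNA share of plastid counts was 1.90%. Copies with equal counts, described below, enter these shares separately. With 1 member of each such pair the share of plastid counts was 0.761%. In this bulk material, fewer plastids and less RNA per plastid cannot be told apart.

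No correlation was detected between the tRNA share of plastid counts and the plastid share of all counts. The plastid total enters both shares, so they are linked by construction. The permutation does not keep this link, so its p-values cannot show that the shares are unrelated. Over the 10 libraries Pearson's r was -0.0559 (permutation p = 0.879) and Spearman's rho was -0.188 (permutation p = 0.605), both two-sided and both 0.879 after Benjamini-Hochberg adjustment over these 2 tests. Without replicates 1 and 3, the libraries farthest from the median plastid share, r was 0.360 (permutation p = 0.375, n = 8).

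All 37 tRNA genes were counted in every library, with no fewer than 21 reads, but their counts were very uneven. These are reads on whole genes, and the part of gene length and introns in their order was not tested. Mean normalized counts, which are counts divided by a size factor estimated from the plastid genes, spanned a ratio of 1576 between the most and the least counted member. The 6 members with the most counts held 71.6% of all tRNA counts and the 10 with the most held 88.2%. By mean count per gene, 8 members were at 10000 or above, 8 lay between 1000 and 10000, 18 between 100 and 1000, and 3 under 100. Among the 96 other plastid genes these classes held 63, 29, 2 and 2 genes.

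**Figure D1:**
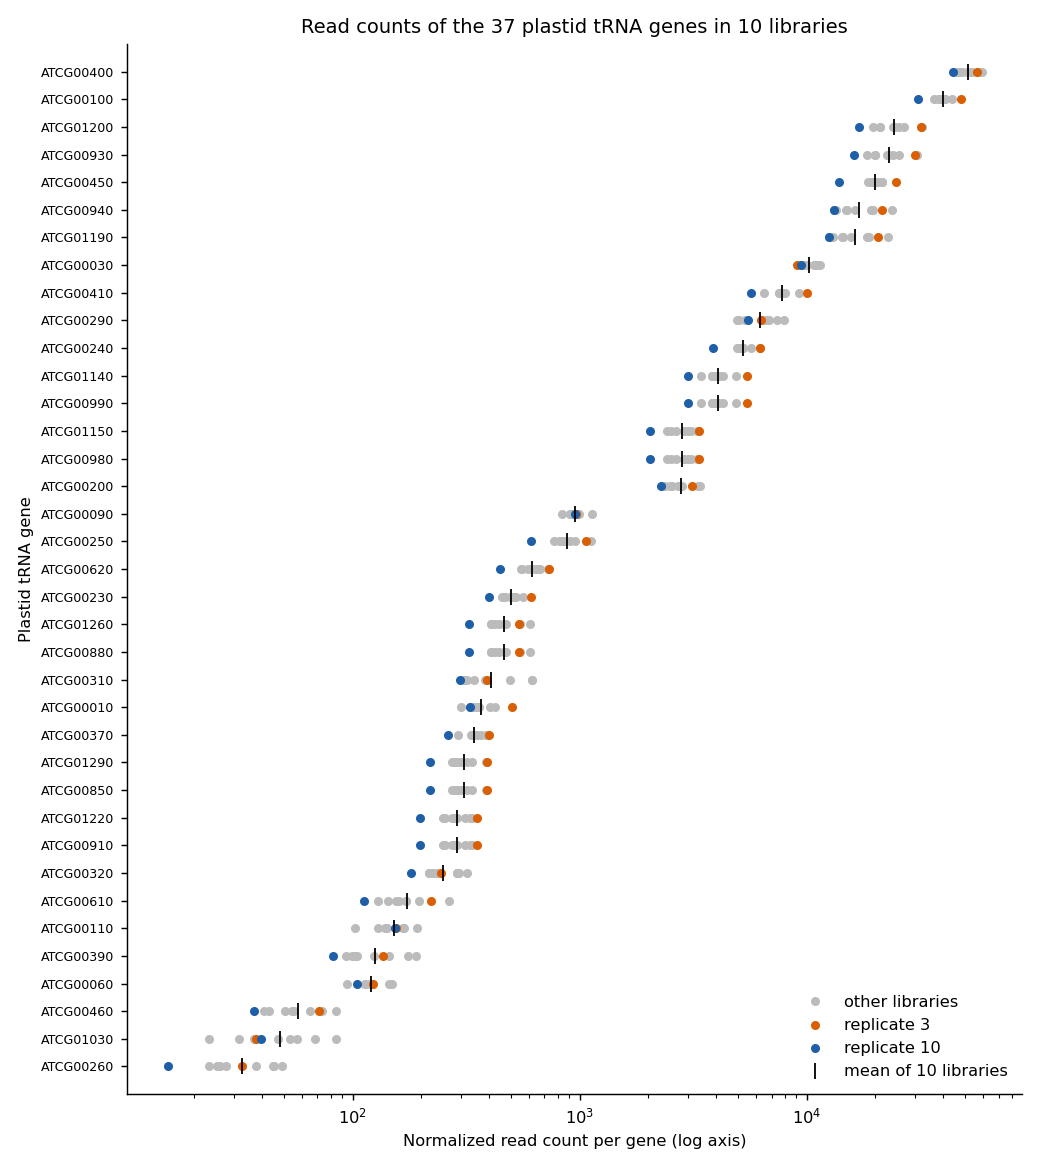
Normalized read count (log axis) of each of the 37 plastid tRNA genes in each of the 10 libraries, ordered by mean. Points are libraries, ticks are means, and replicates 3 and 10 are coloured. Replicate 10 (blue) lies at the left end for most genes, and the means run from 32.7 for ATCG00260 to 51463 for ATCG00400.

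The tRNA gene with the most reads was ATCG00400. Its normalized count was 43932 at the lowest (replicate 10), 52069 at the median and 58994 at the highest (replicate 7), with a mean of 51463 ± 5125 (SD, n = 10), and it alone held 21.2% of the tRNA counts. ATCG00100 followed with 30796 at the lowest (replicate 10), 40006 at the median and 47731 at the highest (replicate 3). The values of both genes overlapped in part over the libraries, although their means of 51463 and 39648 differed by more than 2 SD of either. Within libraries, ATCG00400 was above ATCG00100 in 10 of 10.

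ATCG01200, a second copy, had 17027 at the lowest, 24170 at the median and 32194 at the highest. ATCG00930, the first copy nearest to it in counts, had 16178, 22850 and 30672 in the same order. Replicate 10 was lowest and replicate 6 highest for both, and their ranges overlapped almost entirely. ATCG00450 had 13884 at the lowest (replicate 10), 20103 at the median and 24731 at the highest (replicate 3), so its range overlaps those of ATCG01200 and ATCG00930. Within libraries, ATCG01200 was above ATCG00450 in 9 of 10 and ATCG00930 was above it in 7 of 10. ATCG00940 came sixth, with 13129 at the lowest (replicate 8), 15643 at the median and 23808 at the highest (replicate 6).

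At the other end, 3 members stayed under a mean of 100 counts. ATCG00460 had 36.7 normalized counts at the lowest, 54.7 at the median and 84.6 at the highest. ATCG01030 had 23.4, 43.1 and 84.3, and ATCG00260 had 15.4, 30.1 and 49.0, in the same order. The ranges of these 3 genes overlap one another. Counting error alone, the inverse square root of the mean count, comes to 13.2%, 14.2% and 17.5% of their means, against CVs (coefficients of variation, SD over mean) of 27.4%, 38.4% and 33.8%.

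The copies in the inverted repeat fell into 2 kinds. For 5 of the 7 second copies a first copy had the same counts, taken as a difference under 0.1 of the sampling SD in every library. ATCG00850 and ATCG01290, ATCG00880 and ATCG01260, ATCG00910 and ATCG01220, and ATCG00990 and ATCG01140 were equal in all 10 libraries, to the read. ATCG00980 and ATCG01150 were equal in 4 of the 10 libraries and differed by at most 2 reads in the others, at mean counts of 2825 for each. Such a pair is 1 measurement, which leaves 32 members with distinct counts. RefSeq has 30 distinct sequences, so these members do not all stand for different sequences.

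The pairs with equal counts spanned the middle of the range. ATCG00990 and ATCG01140 had 3009 normalized counts at the lowest (replicate 10), 3972 at the median and 5433 at the highest (replicate 3). ATCG00980 had 2043, 2888 and 3354 in the same order and in the same libraries. Both pairs lie above the other 3 without overlap. ATCG00880 and ATCG01260 had 326 at the lowest (replicate 10), 454 at the median and 604 at the highest (replicate 9). ATCG00850 and ATCG01290 had 219, 295 and 393, and ATCG00910 and ATCG01220 had 199, 285 and 354, with replicate 10 lowest and replicate 3 highest for each. The ranges of these last 3 pairs overlap. The 11 members that are not described singly here had means from 121 (ATCG00060) to 7811 (ATCG00410) and CVs from 11.9% to 17.4%, and replicate 10 was the lowest library for 7 of them.

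The remaining second copies had near but unequal partners. ATCG01190 had fewer reads than ATCG00940 in all 10 libraries, by 3.38% to 4.64% of the reads of ATCG00940 (mean difference -4.02% ± 0.393, SD, n = 10). ATCG01200 had more reads than ATCG00930 in all 10 libraries, by 4.92% to 6.46% (mean 5.47% ± 0.497, SD, n = 10). In single libraries the differences came to 2.91 to 4.33 and to 5.05 to 6.36 times the sampling SD of independent counts. The counts of such a pair may share reads and were not shown to be independent, so these multiples are a scale and no test. Log2 normalized counts within each of these pairs moved together over the libraries (r = 0.9998 for both). These partners were matched by their counts and not by an annotation, and they were kept as separate members. How reads that align to both copies were assigned is not given in the sources used here.

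**Figure D2:**
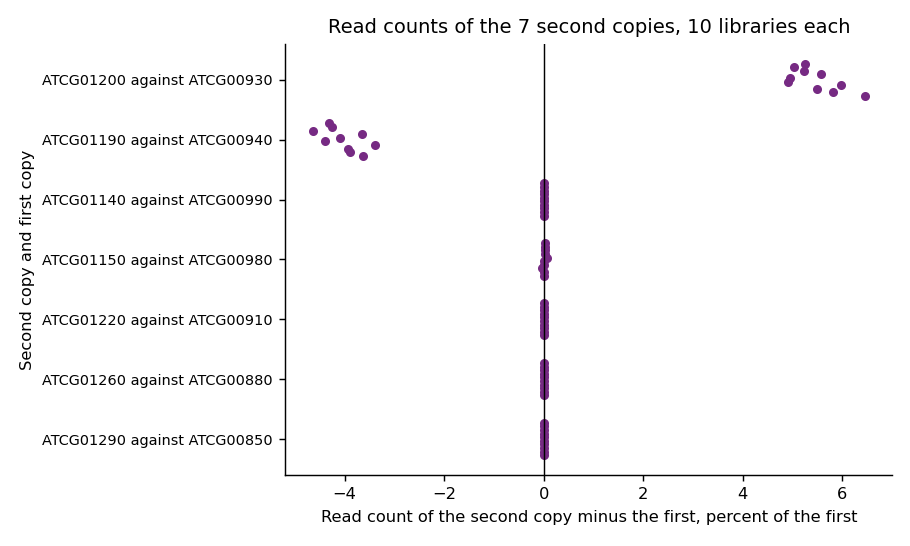
Read count of each second copy minus that of the first copy nearest to it in counts, as a percent of the first (x axis), with 1 point per library and 7 pairs of genes (y axis). The rows of 4 pairs sit exactly at 0, ATCG01150 lies within 2 reads of ATCG00980, ATCG01190 lies 3.38% to 4.64% below and ATCG01200 lies 4.92% to 6.46% above.

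Counts per tRNA gene varied between libraries well beyond counting error. The CV was over 2 times the counting error in 35 of the 37 members, and its median over the 34 members that reached a mean of 100 counts was 16.3% (range 7.83% to 30.6%). The same median was 13.4% (range 4.50% to 95.8%) over the 94 other plastid genes that reached it. Without replicate 10 these medians were 14.0% and 13.2%. Their order depends on the scaling. In CPM the members had 12.2% and the other plastid genes 17.6%, whereas size factors from all genes gave 19.1% against 14.5%. A CV over 20% was seen in 7 of the 34 members (20.6%) and in 21 of the 94 other genes (22.3%).

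Among members that reached a mean of 100 counts, ATCG00030 was the steadiest. It had 9055 normalized counts at the lowest (replicate 3), 9977 at the median and 11420 at the highest (replicate 7), a CV of 7.83%. ATCG00090 had 835 at the lowest (replicate 6), 950 at the median and 1133 at the highest (replicate 7), a CV of 8.12%. The next were ATCG00400 at 9.96% and ATCG00100 at 11.3%, which are also the members with the most counts. ATCG00230 had 400.1 at the lowest (replicate 10), 500.1 at the median and 614 at the highest (replicate 3), a CV of 11.9%. Of these 5 genes, ATCG00030 had the smallest CV with size factors from all genes (10.7%) and with TMM factors (6.28%) too, but in CPM it reached 12.1% and ATCG00100 was the steadiest with 5.01%. Without replicate 7 the CV of ATCG00090 was 5.20%.

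Among the members that reached a mean of 100 counts, the largest CVs were those of ATCG00310, ATCG00390 and ATCG00610. ATCG00310 had 299 normalized counts at the lowest (replicate 10), 362 at the median and 620.1 at the highest (replicate 9), a CV of 30.6%. Its values were 618 and 620.1 in replicates 8 and 9, 492 in replicate 1, and 393 or less in the other 7 libraries. ATCG00390 had 82.2 at the lowest (replicate 10), 114 at the median and 191 at the highest (replicate 9), a CV of 29.1%, and the same 3 libraries were its highest. ATCG00610 had 112 at the lowest (replicate 10), 166 at the median and 266 at the highest (replicate 9), a CV of 26.1%, but here replicate 3 came second with 221. ATCG00940 and ATCG01190 followed with a CV of 22.3% each, and were high in replicates 6, 3, 2 and 5 and low in replicates 8, 10 and 1.

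**Figure D3:**
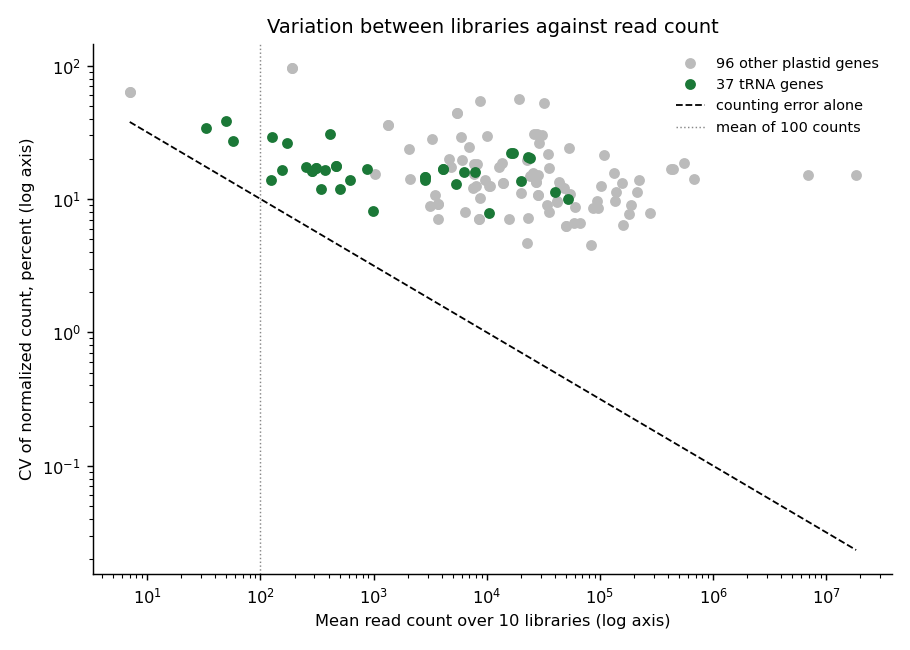
CV of the normalized count over the 10 libraries (y axis, percent, log) against mean read count (x axis, log) for the 37 tRNA genes (green) and the 96 other plastid genes (grey). The dashed line is the CV that counting error alone gives and the dotted line marks a mean of 100 counts. The tRNA genes lie above the dashed line, between 7.83% and 38.4%.

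In replicate 10 many tRNA genes were low at once. The 29 members that reached that mean were used, counting 1 of each pair with equal counts but both of each near-equal pair. Replicate 10 was the lowest library for 21 and lay below the member's mean for 27. The median deviation in that library was -0.42 on the log2 scale. Replicate 3 was the highest library for 12 of the 29 and lay above the mean for 26, with a median deviation of 0.26, but in CPM it was the highest for 2 and lay below the mean for 12, with a median deviation of 0.02. With size factors from all genes and with TMM factors replicate 3 was the highest library for 9 and 15 of the 29. The other plastid genes did not do the same, since replicate 10 was the lowest library for 5 of 94 and the highest for 19, with a median deviation of 0.12. Replicate 3 was the lowest library for 39 of these 94 and the highest for 13, with a median deviation of -0.20. In CPM it was the lowest for 59 of them, with a median deviation of -0.44. The tRNA share of plastid counts in replicate 3 was 0.752%, below the mean of 0.786%. The members' median deviation in replicate 10 was negative under each scaling tried (-0.36 with size factors from all genes, -0.41 with TMM factors and -0.25 in CPM), while the number of members lowest in that library ranged from 13 to 23. With size factors from all genes, replicate 1 was the lowest library for 11 of the 29 members and for 37 of the 94 other genes. The main size factors come from all plastid genes together, so the deviations of members and of other genes are not independent.

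Replicate 10 and replicate 3 were also at the ends of other measures. Replicate 10 had the most counts (60.3 M) and the lowest share of ATCG00020 (35.5% of all counts), and replicate 3 had the fewest counts (41.4 M), the highest plastid share (72.3%, next to 71.7% in replicate 6) and the highest share of ATCG00020 (44.8%). The part of depth and of this gene's share in the tRNA counts was not tested.

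**Figure D4:**
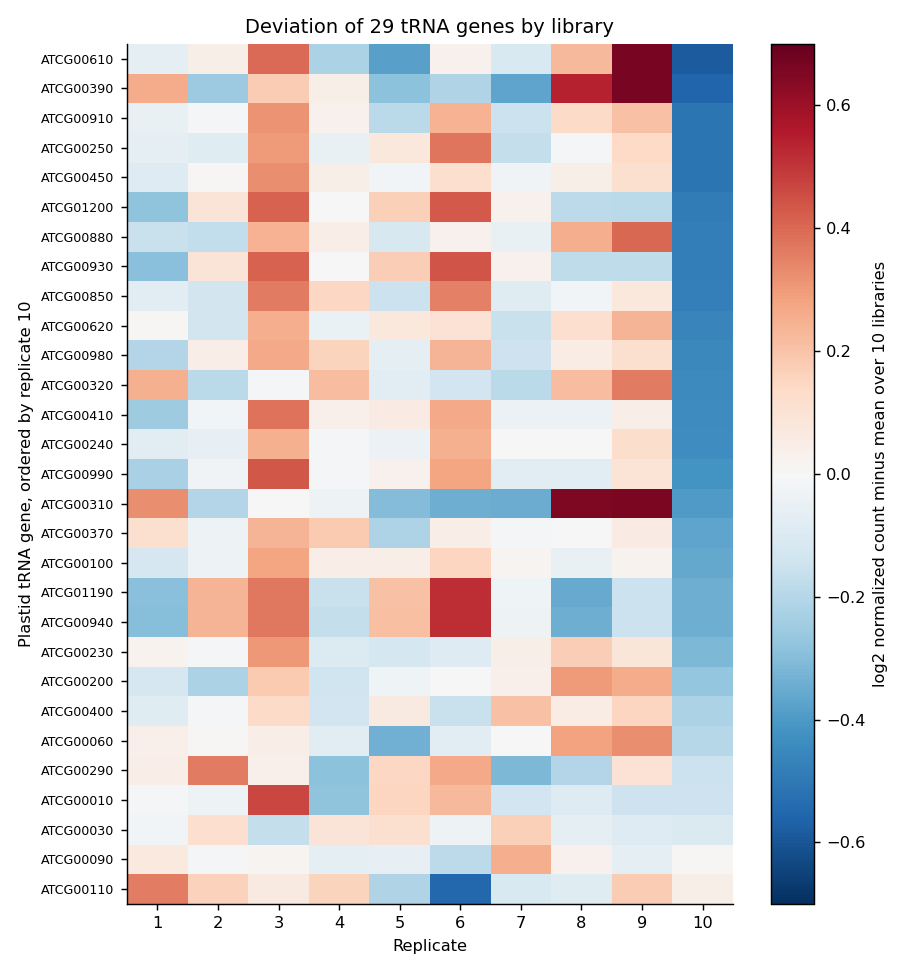
Log2 normalized count of 29 tRNA genes (rows, 1 of each pair with equal counts, mean of at least 100 counts) minus the gene's mean over the libraries, in each of the 10 libraries (columns), with red above and blue below the mean. The column of replicate 10 is blue for 27 of the 29 genes and the column of replicate 3 is red for 26, whereas in CPM, which is not plotted, replicate 3 lies below the mean for 12.

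Members differed in which libraries they followed. Over the 406 pairs of these 29 members the Pearson r of log2 normalized counts had its median at 0.482, its lowest value at -0.572 and its highest at 0.9998. The highest was that of the near-equal ATCG00940 and ATCG01190. The r was over 0.8 in 69 pairs and under 0 in 90. These counts take ATCG00930 and ATCG01200, and ATCG00940 and ATCG01190, as separate members, so pairs with them enter repeatedly. All points share the 10 libraries and their size factors, so these values are a description without a test, and the median was 0.305 without replicate 10. ATCG00310 and ATCG00390 followed each other with r = 0.966 and ATCG00610 with r = 0.698 and r = 0.798. ATCG00320 (r = 0.861 and r = 0.914) and ATCG00060 (r = 0.851 and r = 0.836) were closer to ATCG00310 and ATCG00390 than ATCG00610 was. ATCG00930 and ATCG00940 followed each other with r = 0.934. ATCG00310 and ATCG00390 each had a negative r with ATCG00930, ATCG00940, ATCG01190 and ATCG01200, for example r = -0.485 for ATCG00310 and ATCG00940, whereas ATCG00610 had r = 0.262 with ATCG00930. The values with ATCG01190 and ATCG01200 repeat those with their near-equal partners.

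For each of the 32 members with distinct counts the other plastid gene with the most similar log2 counts over the 10 libraries was taken by the highest Pearson r, which gave 15 different genes. As the best of 94 values at n = 10, such an r is high by construction and is a description only. For 8 of the 32 members with distinct counts the closest of the 94 other genes was ATCG00210, at r of up to 0.931 for ATCG00620. ATCG00020, ATCG00630 and ATCG01000 were each the closest for 3. ATCG00020 was nearest to ATCG00990 (r = 0.971), ATCG00410 (r = 0.967) and ATCG00100 (r = 0.948). ATCG00630 was nearest to ATCG00390 (r = 0.948), ATCG00310 (r = 0.929) and ATCG00610 (r = 0.793). At the other end the closest gene to ATCG00400, the member with the most counts, reached r = 0.618 (ATCG00560), the lowest such value of any member.

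The blank experiment asked how often a tRNA gene was called different when both groups come from 1 condition. For each group size 100 designs were drawn, and a gene was called when it passed a fold change of 1.5 and belonged to a set whose false discovery proportion the Simes bound held at 5%, with p-values of the DESeq2 Wald test over the plastid genes. With 2 libraries in each group, 3 of 3700 tests on tRNA genes gave a call (0.0811%), against 0.835% over all plastid genes. With 3 libraries in each group it was 10 of 3700 (0.27%), against 0.684%. With 4 it was 3 of 3700 (0.0811%), against 0.346%, and with 5 it was 2 of 3700 (0.0541%), against 0.135%. The share of tests with a call was thus lower for the tRNA genes than for all plastid genes at each size. Since designs share libraries and members share reads, these shares carry no test. In both sets, copies with equal counts enter as separate tests. The sets also differ in depth, with 18 tRNA genes but 2 other plastid genes at a mean between 100 and 1000 counts. The part of depth in these shares was not tested.

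Large fold changes were also less frequent on tRNA genes. With 2 libraries in each group a fold change over 1.5 was fitted in 4.57% of the tests on tRNA genes and in 7.93% of those on other plastid genes, and with 5 in 0.703% and 3.75%. The median size of the log2 fold change was higher for the tRNA genes, at 0.18 against 0.14 with 2 libraries and 0.11 against 0.09 with 5. An unadjusted p under 0.05 was reached in 4.43%, 5.54%, 3.81% and 5.03% of the tests on tRNA genes, in the order of group size, and in 8.21%, 7.58%, 4.68% and 5.18% of those on other plastid genes.

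The 18 calls came from 4 members, and 33 members were called in none of the 400 designs. ATCG00310 was called in 6 designs, ATCG00940 and ATCG01190 in the same 5, and ATCG00390 in 2. ATCG00940 and ATCG01190 are near-equal in counts, so their calls are not separate evidence. For ATCG00310 the widest gap was between replicates 7 and 10, with a mean of 304 normalized counts, and replicates 8 and 9, with 619, a fold change of 2.03 (DESeq2 Wald test, p = 2.13e-08). Replicates 8 and 9 stood in the same group in all 6 of its designs. The p-values for ATCG00310 and for ATCG00940 below belong to designs picked afterwards for their wide gaps. They describe the calls and test nothing about these genes. In the 1 design of 5 against 5 libraries with a tRNA gene called, replicates 1, 3, 4, 8 and 9 had a mean of 501 for ATCG00310 and the other 5 libraries 316 (fold change 1.59), and ATCG00390 had 154 against 96.0 (fold change 1.62).

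For ATCG00940 the widest gap was between replicates 1 and 8, with a mean of 13320 normalized counts, and replicates 5 and 6, with 21527 (fold change 1.64, DESeq2 Wald test, p = 4.06e-05). Its other calls had fold changes of 1.51 to 1.58, close to the threshold of 1.5. Replicates 1 and 8 were in the lower group and replicate 6 in the higher group in all 5 of its designs. Of the designs drawn that do not use replicate 10, 63 with 2, 38 with 3 and 23 with 4 libraries in each group, tRNA genes were called 2, 5 and 0 times, and 0.633%, 0.673% and 0.621% of the tests over all plastid genes gave a call. The quasi-likelihood test of edgeR on the same designs gave 1, 2, 2 and 1 calls of tRNA genes among 82, 15, 16 and 10 over all plastid genes.

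**Figure D5:**
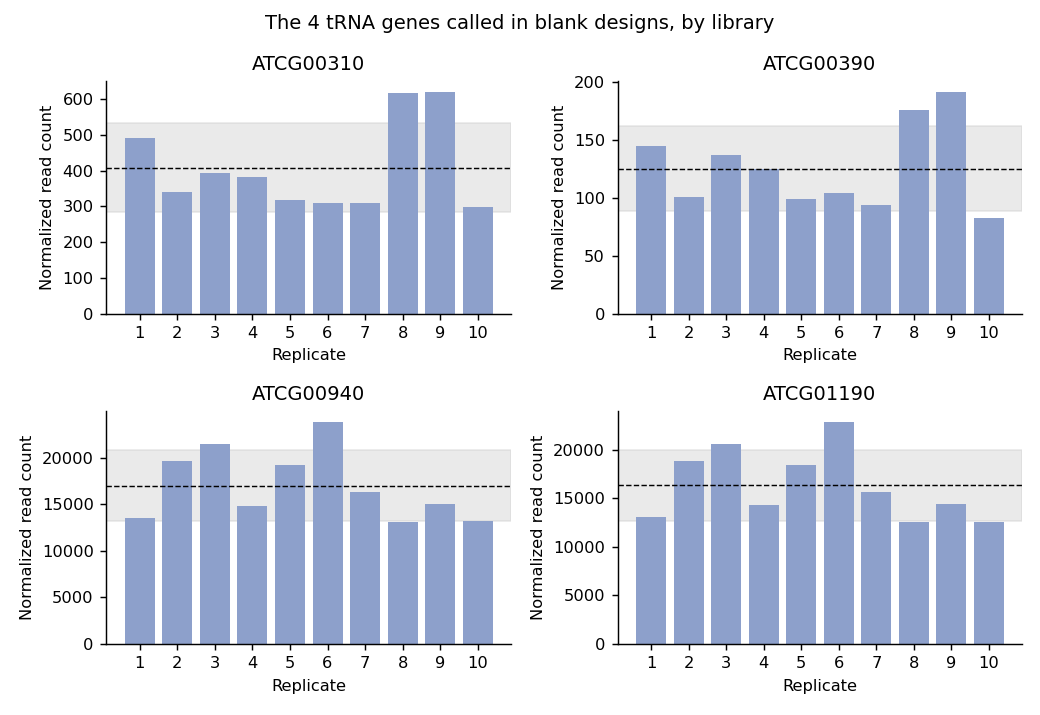
Normalized read count (y axis) in each of the 10 libraries (x axis) for the 4 tRNA genes that were called in at least 1 blank design, with the mean (dashed line) and 1 SD on either side (grey band). ATCG00310 and ATCG00390 are highest in replicates 8 and 9, and ATCG00940 and ATCG01190 are highest in replicate 6.

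Of the nuclear genes known for the transcription, maturation or further use of plastid tRNAs, all 21 on the list were found, at means of 1.55 to 259 CPM. Among the maturation genes, PRORP1, the protein-only RNase P of the organelles, had 5.48 CPM at the lowest, 8.22 at the median and 11.9 at the highest, and CPZ, an RNase Z of the plastid, had 1.36, 2.01 and 2.62. The plastid exonuclease genes RIF10 (polynucleotide phosphorylase) and EMB2730 (RNR1) had means of 17.5 and 6.14 CPM. Among the sigma factors, which guide the plastid-encoded polymerase to promoters, SIGA had the highest mean at 23.1 CPM and SIG2 the largest CV (29.8%), with 6.04 CPM at the lowest, 12.2 at the median and 19.0 at the highest. SCA3, a nuclear-encoded polymerase of the plastid, had a mean of 14.2 CPM. The gene with the most counts on the list was HEMA1, the glutamyl-tRNA reductase at the entry to chlorophyll synthesis, with 183 CPM at the lowest, 263 at the median and 308 at the highest.

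The 19 of these nuclear genes that reached a mean of 100 counts had a median CV of 21.0% in CPM, against 17.8% over the 12262 nuclear genes that reached it. Replicate 3, the library with the highest plastid share, was the lowest for 16 of the 19 (84.2%) and for 49.2% of the 12262. Replicate 1, with the lowest plastid share (63.9%), was the highest for 10 of the 19 (52.6%) and for 62.3% of the 12262. Scaled to the total of nuclear counts instead, replicate 3 was the lowest for 15 of the 19 (78.9%) and for 32.9% of the 12262, and the median CV was 15.6% against 13.5%. These counts carry no test, since genes share the libraries.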

How the data were processed

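Per the labels and the methods of the study, the authors aligned the reads with STAR (TAIR10) and deposited raw read counts per gene without normalization, 1 file per library; the notes also name featureCounts. Versions and the handling of reads that align to several places are not given in the sources used here. The series text gives 5 replicates and the labels give 10. Counts were scaled with median-ratio size factors over the 133 plastid genes. DESeq2 1.42.0 and edgeR 4.0.16 (R 4.3.3) fitted each blank design on its own libraries and the plastid genes. The code of the calling procedure was tried on simulated counts, with the largest group size, large changes and a dispersion shared by all genes. That trial does not measure the error rate of the calls given here. A CV is the SD over the mean, and log2 values carry no pseudocount since no member was at 0. Genes were named by rule: the 6 highest means, the 5 largest and 5 smallest CV at a mean of at least 100 counts, those called most, those under 100 counts and equal pairs. Members and lists were chosen with earlier results of these data known. The nitrogen supplies were not compared, since their values are equal. Alternatives were other size factors, minimum counts and tests, 1 member of each pair and each library left out, and after the data were seen, designs without replicate 10, the members without second copies, and replicates 3 and 10 under other scalings. Sequences are from RefSeq (TAIR10.1).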

Additional observations from a re-analysis of the deposited data

Results flagged for a closer look

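Of 42 sets of 10 values examined for a library far from the others (37 tRNA genes and 5 measures of the libraries), 1 had such a value, where chance alone gives about 1 in 20. The total count of replicate 10, 60323158, lies above the other 9 libraries by 0.533 of the whole range (limit 0.466). No tRNA gene passed the limit, and the nearest was ATCG00090, with 0.465 in replicate 7.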

How the results depend on the processing

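No paired analysis was possible because libraries with the same number hold the same values under both nitrogen labels. Of 52 alternative values other than leaving out a library, 34 kept the result. The tRNA share of plastid counts was 1.90% without ATCG00020, 4.08% without the 2 genes over 10% of plastid counts and 0.631% without the 7 second copies; its range with each library left out was 0.780% to 0.795%. The share of all counts was 0.897% without ATCG00020, 0.431% without the second copies and 0.533% to 0.544% with each library left out. The median CV of the tRNA genes was 12.2% in CPM and 14.0% to 17.3% with each library left out. The median r between members was 0.305 to 0.543 with each library left out. The correlation of tRNA share and plastid share turned to 0.304 without ATCG00020 in the denominator, was -0.343 to 0.149 with each library left out, and passed no threshold under any of these. Calls of tRNA genes with 2, 3, 4 and 5 libraries in each group were 3, 10, 3 and 2 (of 111, 91, 46 and 18 over all plastid genes). They were 1, 2, 2 and 1 with edgeR (of 82, 15, 16 and 10), 15, 16, 5 and 2 with a Benjamini-Hochberg adjusted p under 0.05 and the same fold (of 164, 138, 65 and 23), and 4, 8, 4 and 0 with size factors from all genes (of 105, 94, 47 and 21). Designs that do not use replicate 10 gave 2, 5 and 0 (of 53, 34 and 19) with 2, 3 and 4 libraries, out of fewer designs. Size factors from all genes left 13 members lowest in replicate 10, and CPM left 2 highest in replicate 3. The cause of these changes was not tested. Depth limits ATCG00460, ATCG01030 and ATCG00260, where counting error is 13.2% or more of the mean.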
